A study of Homo sapiens with 6 samples.

Results

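The genes described here are 9 that build and load MHC class I molecules: the heavy chain genes HLA-B, HLA-C, HLA-E and HLA-F, the light chain gene B2M, the peptide transporter genes TAP1 and TAP2, the loading factor gene TAPBP, and NLRC5, a regulator of the others. They were chosen by name from 19974 protein-coding genes on chromosomes 1 to 22 and X, and the summits of open chromatin in each gene body and 10 kb either side were taken from 6 libraries of GM12878, a B lymphoblastoid line immortalised by Epstein-Barr virus. In the 2 H3K27ac-high libraries, cells were stained for viability, fixed for 5 min in 1.6% paraformaldehyde, stained for the histone mark H3K27ac, sorted for strong staining and transposed by InTAC-seq, an ATAC-seq protocol for fixed and stained cells. The 2 H3K27ac-low libraries were made in the same way from cells sorted for weak staining. The 2 live control libraries came from fresh, unsorted cells of the line, with no reversal of crosslinks. Each replicate held 50000 cells and was transposed for 30 min at 37 °C. The replicates are portions of counted cells of 1 line, so the spread between them may be technical. The titles name the mark H3K27ac, and the staining protocol spells it H3K37ac. No genotype or agent separates the groups, and fixation, staining and sorting all separate both sorted groups from the live control.

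MHC class I molecules display peptides from inside the cell to cytotoxic T cells and natural killer cells. A heavy chain pairs with beta-2-microglobulin, the TAP1 and TAP2 proteins pump peptides into the endoplasmic reticulum, and tapasin, the product of TAPBP, holds an empty class I molecule at that transporter while a peptide is selected. In B cells and other nucleated cells, NLRC5 joins RFX, CREB and NF-Y factors at a promoter module of class I genes, and interferon and NF-kB pathways act at neighbouring promoter elements. H3K27ac is a mark of active promoters and enhancers, and ATAC-seq summits mark the points where the transposase Tn5 cut most often.

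The promoters of 5 of the 9 genes are shown as examples: the closely related pair HLA-B and HLA-C, the light chain gene B2M, TAP1, whose start region also serves PSMB9, and TAPBP, the gene of the 9 with the weakest start summit. Gene-start summits fell inside each of them in 5 or 6 libraries. In all 6 they also fell inside the promoters of HLA-F and TAP2, which are not shown. Sequences are RefSeq's for GRCh38.p14, 250 bases before the gene start to 50 from it on, 5′ to 3′ on the strand of the gene. Capitals mark matches, on either strand, to CCAAT (the letters of the NF-Y site), TGACG (the core of CREB and ATF sites), an interferon-stimulated response element (ISRE) core of 2 GAAA words with 2 bases between them, or an NF-kB motif.
HLA-B, chr6:31357130-31357429, minus strand: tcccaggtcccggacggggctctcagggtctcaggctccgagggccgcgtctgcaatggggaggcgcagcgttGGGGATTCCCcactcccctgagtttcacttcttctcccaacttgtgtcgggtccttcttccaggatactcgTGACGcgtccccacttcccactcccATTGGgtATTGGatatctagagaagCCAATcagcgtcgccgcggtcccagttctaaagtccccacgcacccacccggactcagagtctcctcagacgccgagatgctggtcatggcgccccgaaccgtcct
HLA-C, chr6:31272043-31272342, minus strand: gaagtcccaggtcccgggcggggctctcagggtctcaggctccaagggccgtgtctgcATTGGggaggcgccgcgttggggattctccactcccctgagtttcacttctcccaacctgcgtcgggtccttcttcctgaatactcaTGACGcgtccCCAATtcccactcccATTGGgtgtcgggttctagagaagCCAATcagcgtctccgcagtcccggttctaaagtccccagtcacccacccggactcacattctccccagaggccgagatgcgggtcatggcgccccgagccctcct
B2M, chr15:44711267-44711566, plus strand: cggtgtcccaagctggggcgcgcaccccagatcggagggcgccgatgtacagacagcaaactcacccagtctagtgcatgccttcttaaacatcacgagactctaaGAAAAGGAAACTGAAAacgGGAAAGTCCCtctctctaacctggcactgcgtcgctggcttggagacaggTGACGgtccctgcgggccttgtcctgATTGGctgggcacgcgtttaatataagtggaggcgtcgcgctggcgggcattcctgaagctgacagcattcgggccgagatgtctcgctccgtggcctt
TAP1, chr6:32853655-32853954, minus strand: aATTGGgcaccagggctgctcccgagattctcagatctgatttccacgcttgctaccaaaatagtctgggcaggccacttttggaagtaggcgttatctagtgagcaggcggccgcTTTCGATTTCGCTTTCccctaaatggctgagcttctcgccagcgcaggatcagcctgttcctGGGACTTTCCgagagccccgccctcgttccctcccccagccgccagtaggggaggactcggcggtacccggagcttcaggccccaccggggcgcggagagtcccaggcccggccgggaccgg
TAPBP, chr6:33314029-33314328, minus strand: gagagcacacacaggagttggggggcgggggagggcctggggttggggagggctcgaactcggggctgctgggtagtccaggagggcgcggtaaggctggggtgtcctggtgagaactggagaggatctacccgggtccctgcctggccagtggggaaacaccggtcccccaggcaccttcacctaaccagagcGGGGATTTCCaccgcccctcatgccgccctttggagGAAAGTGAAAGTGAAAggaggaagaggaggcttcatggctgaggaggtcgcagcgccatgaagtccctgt

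The promoter table held 7 of the 9 genes, all but HLA-E and NLRC5. CCAAT was found in 5 of the 7, against 34.6% of 35116 promoters of that length, and TGACG in 4 of 7, against 24.6%. The ISRE core was found in 5 of 7, against 3.57%, and the NF-kB motif in 4 of 7, against 5.68%. In HLA-B, TGACG began at -106, counted from the gene start with bases before it negative, and the CCAAT matches nearest to it at -81 and -74, both on the opposite strand. In HLA-C, TGACG began at -105 and 2 of the CCAAT matches at -95 and -80. In B2M the ISRE matches began at -144 and -138 and overlapped each other, followed by the NF-kB match at -125, TGACG at -75 and CCAAT at -49. TAP1 and TAPBP also carried pairs of overlapping ISRE matches, at -134 and -128 in TAP1 and at -20 and -14 in TAPBP. Except for those overlaps of the ISRE core with itself, no match in the printed stretches overlapped another. The promoters of HLA-B and HLA-C were 88.5% identical over their alignment, and each was 79.2% (HLA-B) or 78.5% (HLA-C) identical to that of HLA-F. All other pairs among the 7 lay between 39.5% and 45.0%. How the authors' aligner treated reads that match several class I genes is not given in the sources used here, so the split of reads between these paralogs is uncertain.

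The lists held 25754 and 46708 summits in the H3K27ac-high, 41980 and 51944 in the H3K27ac-low and 70100 and 72476 in the live control libraries. They give no read numbers, so depth is unknown, and to compare lists of unequal length the 25681 best-scoring summits on chromosomes 1 to 22 and X were used from each (the best summits below), a number set by H3K27ac high replicate 1, whose list is the shortest. A gene-start summit is the best-ranked summit within 1 kb of a gene start, and rank 1 is the best score in a library. For HLA-E and NLRC5, as for 4162 protein-coding genes in all, no strand was at hand, and either annotated gene end counted. Of 8 B cell markers, 2 (MS4A1 and CD79B) had a gene-start summit among the best of all 6 libraries, against 41.6% of all genes. By the same rule it was 1 of 5 for T cell (CD3E), 0 of 5 for myeloid and 0 of 4 for erythroid markers. No strand was at hand for MS4A1, CD79B and CD3E either, so their summits may lie at either gene end.

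Class I promoters were open in every group. A gene-start summit stood among the best of all 6 libraries for 7 of the 9 genes, against 41.6% of all protein-coding genes. The exceptions were NLRC5, which ranked 26469 in H3K27ac low replicate 2, just outside, and TAPBP. TAPBP had no such summit in H3K27ac high replicate 1 and ranked outside the best in H3K27ac high replicate 2 and live control replicate 1. With full lists 8 of the 9 had a gene-start summit in all libraries, against 45% of all genes. Ordered by median rank over the 6 libraries, HLA-E came first (4029), then B2M (5771), HLA-C (7062), HLA-F (8372), TAP1 (12365.5), HLA-B (13514), TAP2 (13525.5), NLRC5 (16976) and TAPBP (26304.5). Each gene's range over the libraries overlapped that of its neighbours in this order, so no neighbouring pair differed beyond its spread. As a set, the 9 genes ranked later than gene starts in general, with exceptions in some libraries. HLA-E, HLA-C and B2M came before the median gene in both live control libraries, and HLA-E also in both low libraries. B2M did so in high replicate 1 and low replicate 1 too, and HLA-C in low replicate 2. HLA-F came before it in low replicate 1 and live control replicate 2. Among genes with a best summit at their start, the median rank of the class I genes was 13969.5 and 11622.5 in H3K27ac-high libraries, against 10117 and 9002 in the low and 10738 and 10952 in the live control. Over all such genes it was 7296.5 and 6877.5 in the high, 5757.5 and 5939 in the low and 6958 and 7077.5 in the live control libraries.

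**Figure D1:**
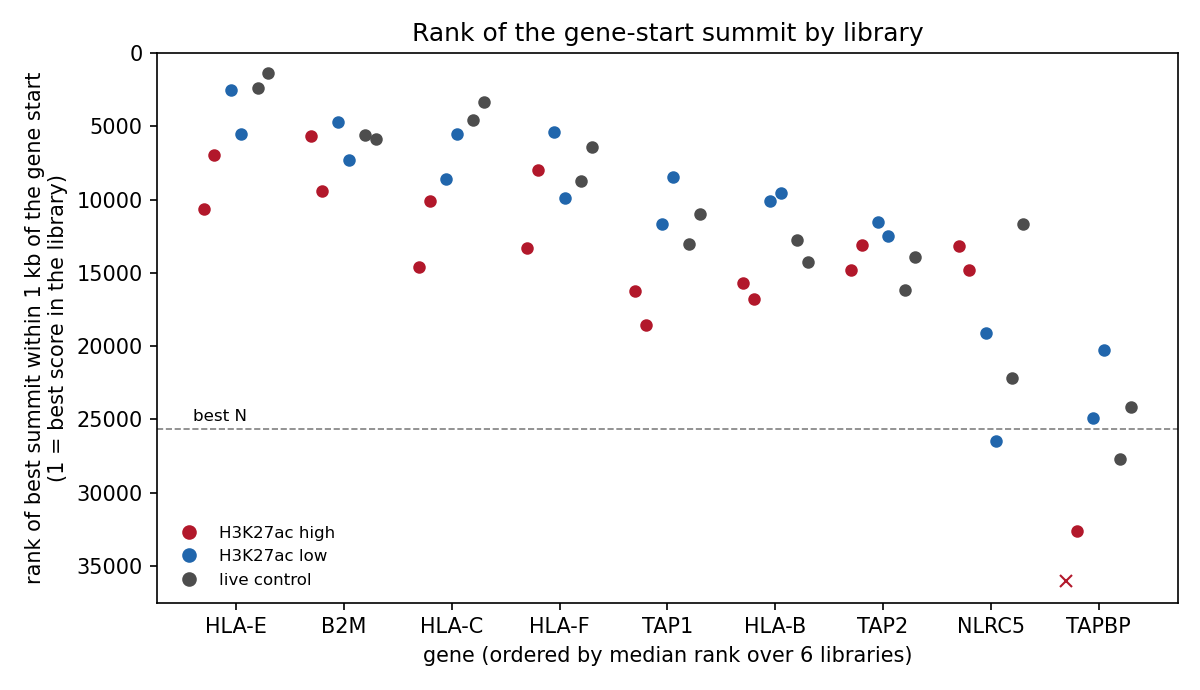
Rank of the gene-start summit (vertical axis, 1 is the best score in a library, axis runs downward) for each of the 9 genes, 1 point per library: red for H3K27ac high, blue for H3K27ac low, grey for live control. The dashed line marks rank 25681, the end of the best summits, and the cross marks TAPBP in H3K27ac high replicate 1, which had no summit there. HLA-C and HLA-E run from the latest ranks in the high to the best ranks in the live control libraries.

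The gene-start summits lay close to the gene starts. At HLA-B they lay at -154 to -47 bases from the gene start (chromosome 6, 31357226 to 31357333, hg38), and in all 6 libraries within the printed 300 bases. At HLA-C they lay between -80 and 36 bases from the start (31272056 to 31272172), where H3K27ac high replicate 1 was the library past the start. At HLA-E they lay at -121 to -57 bases from the lower-numbered gene end (30489388 to 30489452). At HLA-F all 6 lay at -171 to -115 (29723263 to 29723319). At B2M, the tightest of the 9, all 6 lay within 40 bp of each other, at -102 to -62 (chromosome 15, 44711415 to 44711455). That stretch holds the TGACG match of B2M at -75. The annotated gene end nearest to it is that of PATL2, 25 bp away, and a PATL2 start lies within 1 kb. The B2M summits and their ranks therefore cannot be assigned to B2M alone. At TAP2 the summits lay between -122 and 8 bases from the start (32838731 to 32838861), and at TAPBP, in 5 libraries, between -87 and 8 (33314070 to 33314165). TAP1 had the widest spread, 332 bp, because the summit of live control replicate 1 lay at -351 and those of the other libraries at -168 to -19. The start of PSMB9, the gene of an immunoproteasome subunit on the opposite side, lies within 1 kb of the same summits, so they cannot be assigned to 1 of the 2 genes.

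HLA-B encodes a classical, highly polymorphic heavy chain that presents peptides to cytotoxic T cells. Its gene-start summit ranked 15660 and 16792 in the H3K27ac-high, 10117 and 9522 in the H3K27ac-low and 12738 and 14290 in the live control libraries. The groups did not overlap: the low libraries ranked it best and the high libraries last. The mean rank was 16226 ± 800.4 in high, 9820 ± 421 in low and 13514 ± 1097 in live control libraries (SD, n = 2 each). With 2 libraries against 2, an exact permutation test (two-sided) cannot go below p = 0.333, the value that any pair of groups without overlap gives, so that test cannot pass 0.05 here. A rank is relative to the other summits of its list. A later rank can mean fewer cells with the site open, less cutting at the site in every cell, or better scores at other sites. These cannot be told apart.

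HLA-C encodes a classical heavy chain that is also a main ligand of inhibitory receptors of natural killer cells. Its gene-start summit ranked 14607 and 10129 in the high, 8609 and 5515 in the low and 4565 and 3323 in the live control libraries. Here too the groups did not overlap, and the live control, not the low group, ranked first. HLA-E, a heavy chain of low polymorphism that presents leader peptides of other class I molecules to CD94 and NKG2A, had the same order. It ranked 10637 and 6975 in the high, 2551 and 5507 in the low and 2357 and 1378 in the live control libraries. Mean log2 ranks of HLA-E were 13.07 in high, 11.87 in low and 10.82 in live control libraries, so the high libraries lay 1.20 later than the low and 2.26 later than the live control on the log2 scale. Both are the largest such differences among the 9 genes.

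HLA-F encodes a heavy chain of restricted tissue display. It ranked 13332 and 8006 in the high, 5372 and 9867 in the low and 8738 and 6424 in the live control libraries. All 3 groups overlapped, and the spread within the high group was wider than the gap to either other group. B2M, the light chain that all class I molecules share, ranked 5685 and 9383 in the high, 4717 and 7288 in the low and 5603 and 5857 in the live control libraries. The groups overlapped in every pair, with means of 7534 ± 2615, 6003 ± 1818 and 5730.0 ± 179.6 in high, low and live control libraries (SD, n = 2 each).

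The transporter genes lie next to each other on chromosome 6, so the windows of TAP1 and TAP2 overlap and share their summits between 32835209 and 32848739. The TAP1 start ranked 16259 and 18563 in the high, 11691 and 8482 in the low and 13040 and 10952 in the live control libraries. Both high libraries came after all others, and the low and live control libraries overlapped. The TAP2 start ranked 14802 and 13116 in the high, 11509 and 12497 in the low and 16174 and 13935 in the live control libraries. The low libraries came first, and the high and live control libraries overlapped. The gap of TAP2 between the high and low groups was small, 0.22 on the log2 rank scale, with 13.77 in high and 13.55 in low libraries. Between them, the start of PSMB8, another immunoproteasome subunit gene, ranked 13193 and 11780 in the high, 12353 and 10620 in the low and 7852 and 12534 in the live control libraries, with overlap in every pair of groups.

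TAPBP had the weakest start summit. It was missing from H3K27ac high replicate 1 and ranked 32641 in H3K27ac high replicate 2, against 24925 and 20252 in the low and 27684 and 24135 in the live control libraries. High replicate 1 has the shortest list, 25681 summits on chromosomes 1 to 22 and X, so a site of this strength could be missing there through list length, and its part in the result was not tested. Other promoters in the TAPBP window were stronger. A site 111 bp from the nearest end of DAXX, the gene of a histone H3.3 chaperone (chromosome 6, 33323070 to 33323127), had ranks of 16608 and 3065 in the high, 2270 and 684 in the low and 2603 and 1008 in the live control libraries. The high libraries came last there, but high replicate 1 stood far from high replicate 2. The start of ZBTB22, a zinc finger gene, ranked 24488 and 15012 in the high, 9243 and 10164 in the low and 17168 and 20687 in the live control libraries.

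NLRC5 was the 1 gene of the 9 at which the high group ranked ahead of the low. Its gene-end summit (chromosome 16, 56989519 to 56989595) took ranks 13201 and 14835 in the high, 19117 and 26469 in the low and 22180 and 11684 in the live control libraries. Both high libraries came before both low libraries, and the live control libraries lay on either side of the high ones. The mean log2 rank was 13.77 in high and 14.44 in low libraries, a difference of -0.66. NLRC5 is also the longest of the 9 genes, 93964 bp, and held its strongest summits inside the gene. At 57014714 to 57014794 it ranked 5529 and 4308 in the high, 12267 and 7415 in the low and 6808 and 4474 in the live control libraries. At 57000695 to 57000804 it ranked 9963 and 9277 in the high, 16286 and 13535 in the low and 10953 and 14911 in the live control libraries. The high group came first against the low group at both, and against the live control at the second. At the first, the live control also came before the low group. At 57042237 to 57042338 the ranks were 9765 and 7065 in the high, 8677 and 11929 in the low and 6288 and 9447 in the live control libraries, and the groups overlapped.

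High-first ranks were common at sites away from gene starts that all full lists held. Of sites over 1 kb from a gene start in all 6 full lists, 33.2% ranked ahead in both high against both low libraries. For 10.5% it was the other way. At sites within 1 kb of a gene start, these shares were 14.2% and 36.4%. A site held by all lists ranks no later than 25681 in high replicate 1, the shortest list, but can rank later in other libraries. How far this affected the shares was not tested. At sites away from gene starts, the high group ranked ahead of the live control at 35.2%, and the live control ahead at 15.9%. The live control ranked ahead of the low group at 27.3% of them, and the low group ahead at 24.9%. The 2 of 3 sites inside NLRC5 with the high group first are to be read against 33.2%, and its gene-end summit against 14.2%. The 3 genes whose gene-start ranks were most like those of NLRC5 over the 6 libraries were FMNL2, TMEM156 and RNASEH2B, with mean absolute differences of 0.16, 0.17 and 0.18 in log2 rank.

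**Figure D2:**
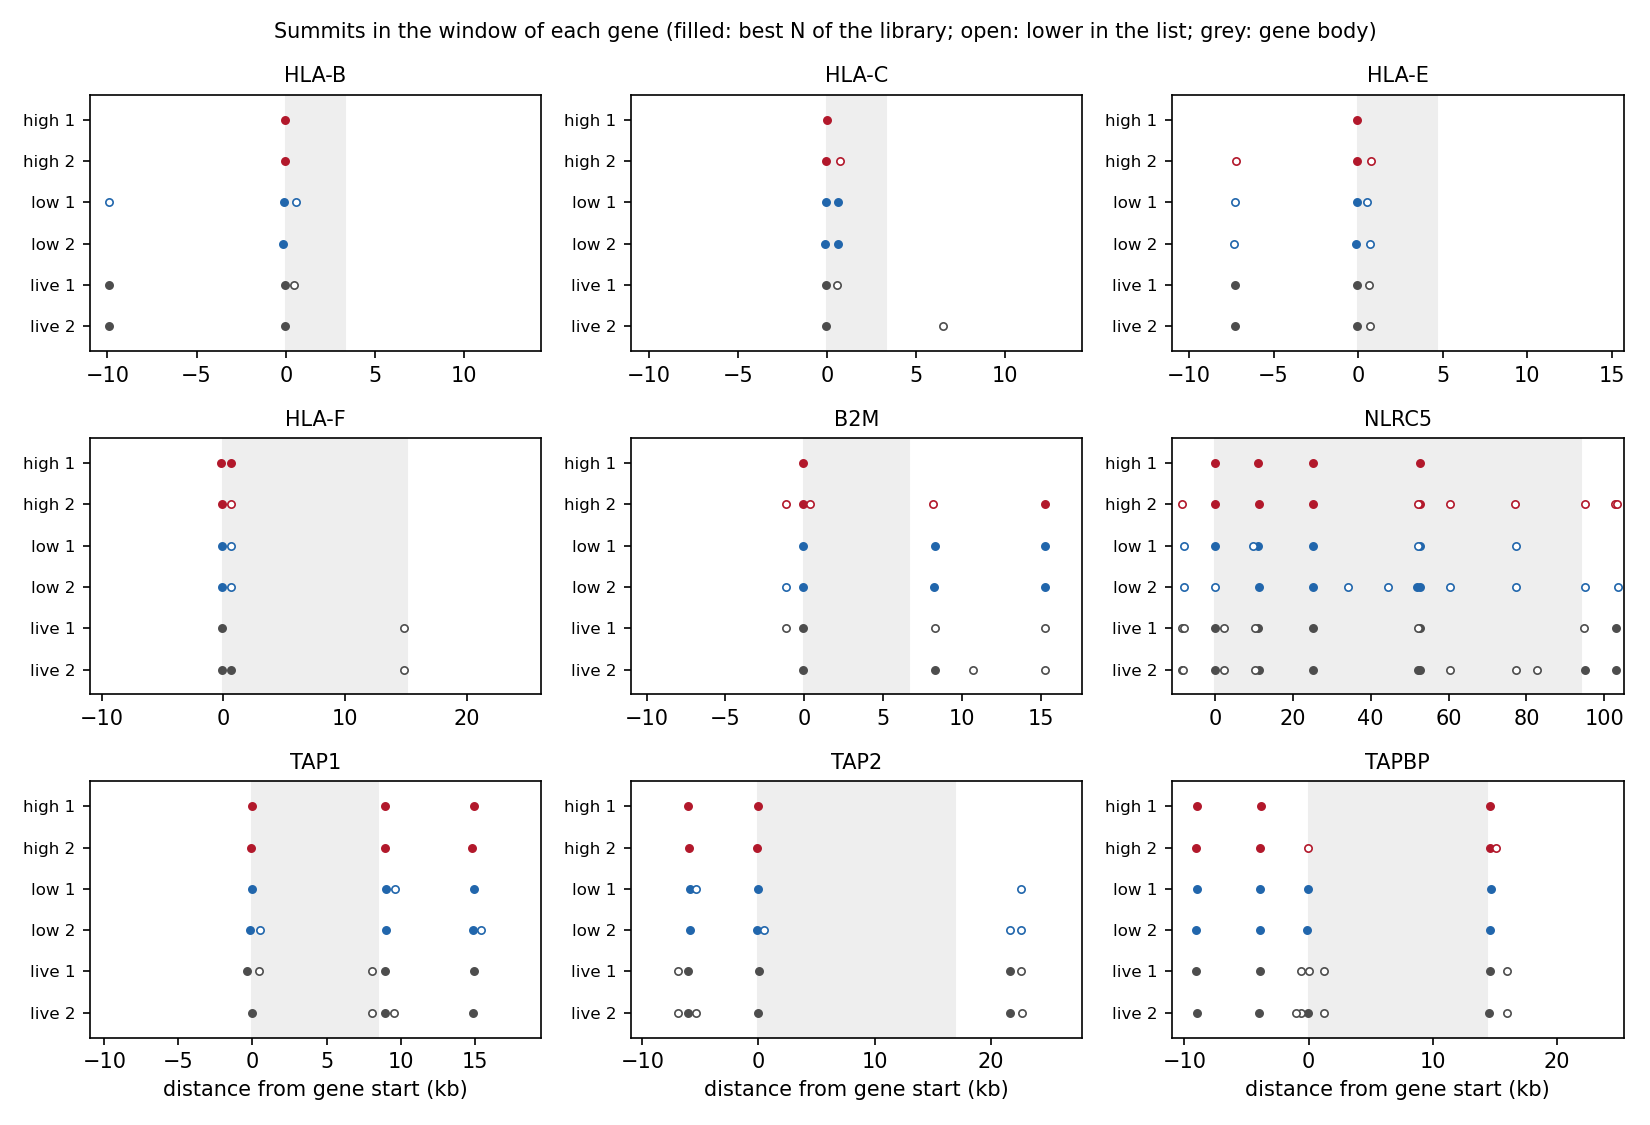
Summits in the window of each gene, 1 row per library (high, low, live from top to bottom), against distance from the gene start in kb along the gene's strand (from the lower-numbered gene end for HLA-E and NLRC5). Filled points are among the 25681 best of the library, open points lie lower in its list, and grey shading is the gene body. At 0, 7 of the 9 genes show filled points in all 6 libraries, NLRC5 in 5 and TAPBP in 3, and NLRC5 shows 3 more filled columns inside the gene.

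The comparison of H3K27ac high with H3K27ac low asks whether cells with much and with little of the mark differ in access to these genes. A gene was called when its ranks in both libraries of a group came before those in both of the other. The low group ranked ahead at 6 of the 9 genes (HLA-B, HLA-C, HLA-E, TAP1, TAP2 and TAPBP), against 38.9% of 10855 genes tested. The high group ranked ahead at NLRC5 alone, against 11.2%. With the best 12840 summits of each library it did so at 0 genes, against 11.4%. NLRC5 ranked beyond 12840 in all high and low libraries, so it could not be called with those shorter lists. Among the 25681 best summits, HLA-F and B2M overlapped. The median difference in mean log2 rank, high minus low, was 0.50 over the 9 genes and 0.30 over all genes tested, and 8 of the 9 lay above 0, against 68.5% of all genes. Gene starts in general thus ranked later in the high libraries, and the 9 genes are to be read against that shift.

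Against the live control, the high group ranked ahead at none of the 9 genes, against 21.2% of 10879 genes tested, and the live control ranked ahead at 4 (HLA-B, HLA-C, HLA-E and TAP1), against 31.5%. Leaving out a library raised the share called among all genes too. Without live control replicate 1 the live control was ahead at 7 genes, against 43.3% of all genes by the same rule. The high group was ahead at 1 gene without high replicate 1, against 35.8%, and at 2 without live control replicate 2, against 29.2%. The median difference, high minus live, was 0.35 over the 9 genes and 0.12 over all. The low group ranked ahead of the live control at HLA-B and TAP2, against 37.4% of 10946 genes, and the live control ranked ahead of the low group at HLA-C and HLA-E, against 21.6%. The low group was ahead at 4 genes when low replicate 1, low replicate 2 or live control replicate 2 was left out, against 46.3%, 48% and 47.3% of all genes. The live control was ahead of the low group at 5 without low replicate 1, against 30.2%, and at 3 without live control replicate 1, against 32.8%. The median difference, low minus live, was -0.04 over the 9 genes and -0.14 over all. The 2 comparisons with the live control share its libraries.

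**Figure D3:**
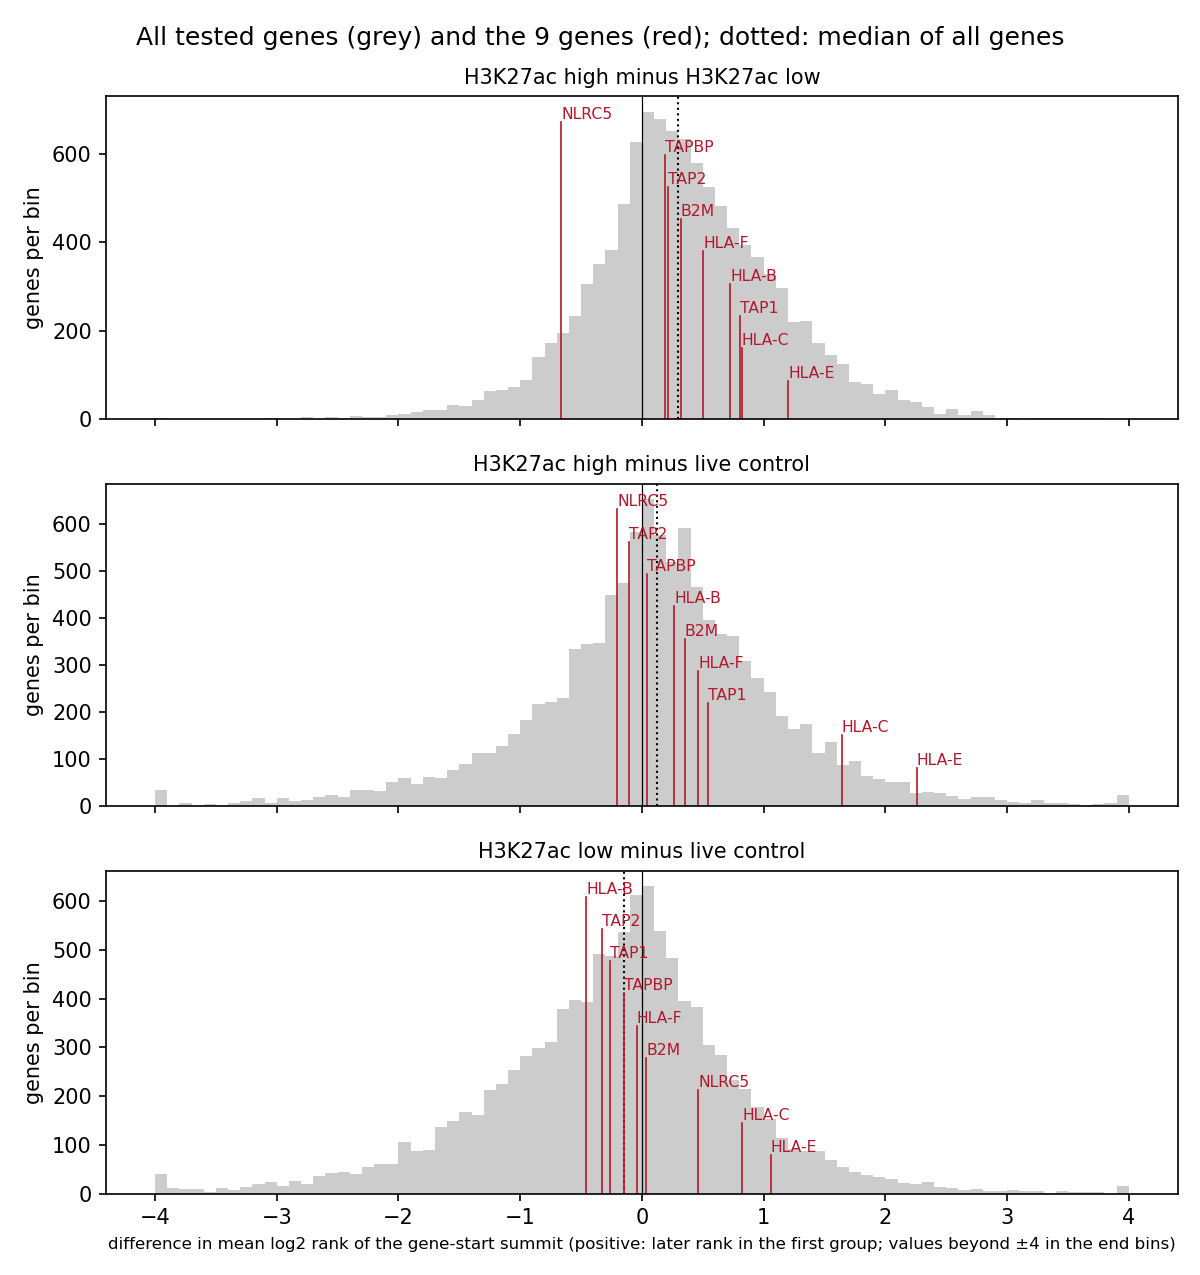
Histograms of the difference in mean log2 rank of the gene-start summit over all genes tested (grey, genes per bin; the dotted line is their median), with the 9 genes as red lines whose height only keeps the names apart. Panels show high minus low, high minus live control and low minus live control, and positive values mean a later rank in the first group named. HLA-E and HLA-C lie farthest right in all 3 panels, and NLRC5 farthest left in the upper 2.

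Counts of summits in the windows showed where the groups held further sites. Joined where they overlap, the windows covered 333286 bp in 8 pieces. Among the best summits they held 16 and 16 in the high, 19 and 19 in the low and 19 and 24 in the live control libraries, or 16.0 ± 0.0, 19.0 ± 0.0 and 21.5 ± 3.5 (SD, n = 2 each). Full lists gave 16 and 32 in the high, 30 and 35 in the low and 39 and 43 in the live control libraries, an order that also follows the lengths of the lists. With the best summits the high group held 3 fewer than the low and 5.5 fewer than the live control, and the low group 2.5 fewer than the live control. In gene bodies alone the high and low groups did not differ (0.0), and each held 0.5 more than the live control. With the best 12840 summits the low group held 2.0 more than the live control, so no direction is read from the window totals. The difference between high and live control was -8 without live control replicate 1 and -3 without replicate 2, and that between low and live control was -5 and 0.

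**Figure D4:**
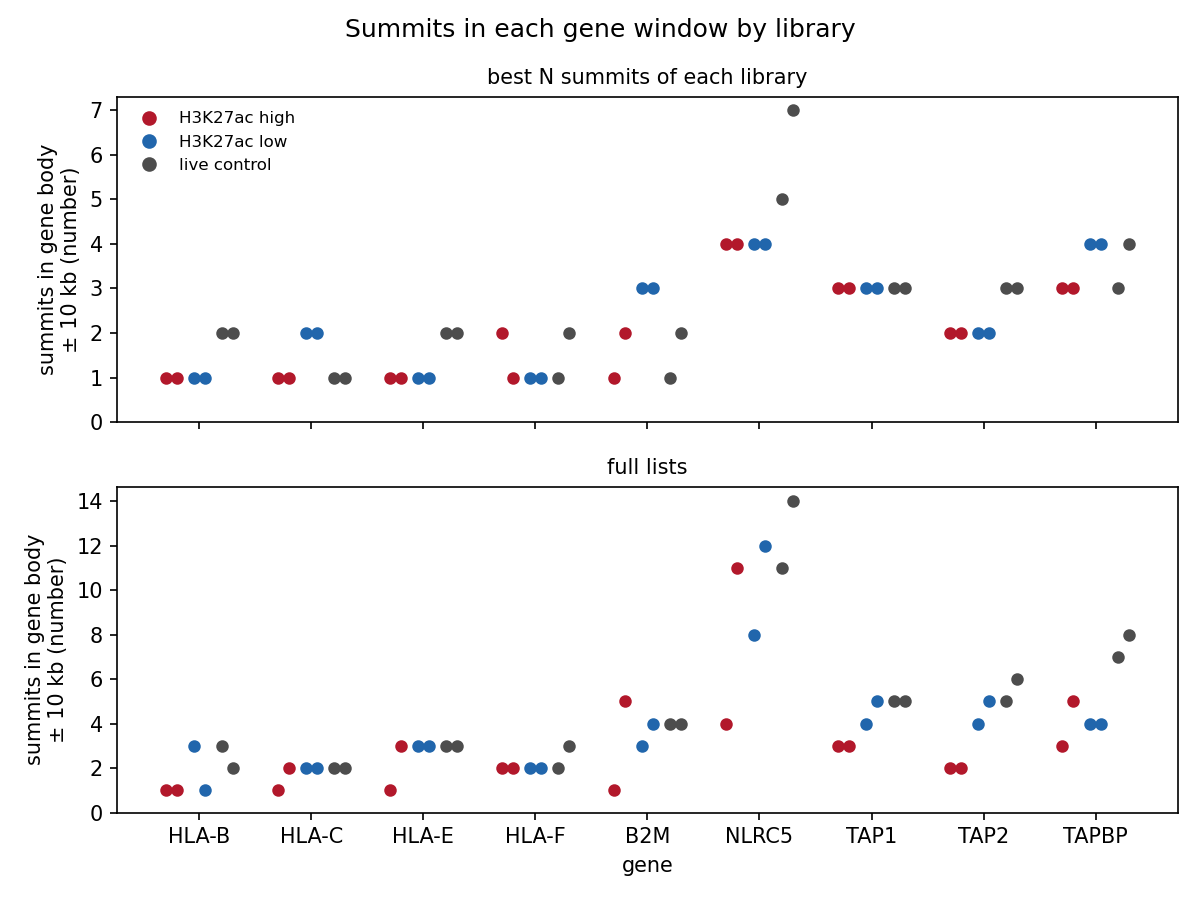
Number of summits in the gene body and 10 kb either side of each gene, 1 point per library (red H3K27ac high, blue H3K27ac low, grey live control), among the 25681 best summits of each library (upper panel) and in full lists (lower panel). In the upper panel the low libraries stand above the high ones at HLA-C, B2M and TAPBP, and the live control above both sorted groups at HLA-B, HLA-E, TAP2 and NLRC5.

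HLA-C, B2M and TAPBP had more best summits in both low than in both high libraries, against 7.14% of 14630 genes, and none of the 9 had more in both high libraries, against 3.34%. At HLA-C the counts were 1 and 1 in the high against 2 and 2 in the low libraries. The added site lay inside the gene (31271377 to 31271495) and ranked 38009 in high replicate 2, 20599 and 24030 in the low libraries and 31491 in live control replicate 1, and the other libraries did not list it. At B2M the counts were 1 and 2 in the high against 3 and 3 in the low libraries. A site 1535 bp past the end of the gene (chromosome 15, 44719680 to 44719815) ranked 35115 in high replicate 2, 22306 and 21621 in the low and 26155 and 16821 in the live control libraries. A second, 8609 bp past the end (44726754 to 44726787), ranked 20540 in high replicate 2, 25000 and 24619 in the low and 29230 and 28291 in the live control libraries. High replicate 1 held neither. At TAPBP the added site was its own gene start.

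The live control held more best summits than the high group at HLA-B, HLA-E, NLRC5 and TAP2, against 8.74% of 14870 genes, and more than the low group at the same 4 genes, against 6.01% of 14789. The low group held more than the live control at HLA-C and B2M, against 6.74%, and the high group held more than the live control at none, against 5.39%. At each of these 4 genes, a site stood among the best summits of both live control libraries and of no sorted library. None of these sites was at the start of a class I gene. The site near HLA-B (31367114 to 31367119) lay 9935 bp from it, at the edge of the window, and ranked 31604 in low replicate 1 and 13121 and 18419 in the live control. The site near HLA-E (30482168 to 30482297) lay 7212 bp away and ranked 29409 in high replicate 2, 26084 and 38601 in the low and 20474 and 17871 in the live control libraries. In the TAP2 window it was the start of HLA-DOB, a class II gene of B cells (32817066 to 32817106), which ranked 40526 in low replicate 2, against 23015 and 10608 in the live control. In the NLRC5 window it was the start of CPNE2 (57092388 to 57092542), which ranked 46256 in high replicate 2, against 22419 and 24352 in the live control. Other sites added to the NLRC5 counts. Live control replicate 2 held a best summit at 57084403 to 57084490 (rank 20268), 883 bp from the higher-numbered gene end. It held another at 57041514 to 57041613 (24177), as did low replicate 2 (24433). Low replicate 2 lacked the summit at the lower-numbered end among its best (26469).

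Sites shared by all libraries were counted next. Summits of all libraries less than 250 bp apart were joined into sites, and 14 of the 26 sites formed by the best summits were in all 6 libraries, 53.8%, against 39% of the sites in the windows of all protein-coding genes. With full lists it was 15 of 53, 28.3%, against 22.8%. With the best 12840 summits it was 4 of 16, below the 38.2% of all sites, so the higher share did not hold with shorter lists. Of the 14, 7 were starts of the 9 genes, 3 lay inside NLRC5, and the others were at PSMB8, RGL2, ZBTB22 and DAXX.

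The wider pathway was given by 21 genes of peptide supply, folding, related class I chains and regulation. Of these, 15 had a gene-start summit among the best of all 6 libraries, against 41.6% of all genes. Between the sorted groups 3 of the 21 ranked ahead in the low libraries (PSMB9, CALR and CANX, against 38.9%) and 2 in the high (RFX5 among them, against 11.2%), 13 overlapped and 3 had too few summits to compare. PSMB9 repeats TAP1, whose summits it shares. Against the live control, the high group ranked ahead at 4 (RFXAP, RFXANK and IRF1 among them, against 21.2%) and the live control at 5 (PSMB9, PSMB10, MICB, MR1 and RFX5, against 31.5%). The low group ranked ahead of the live control at 8, among them CALR, CANX and IRF1, against 37.4%, and the live control ahead of the low group at 5, against 21.6%. CANX, the gene of the chaperone calnexin that folds new heavy chains, ranked 558 and 956 in the high, 104 and 301 in the low and 740 and 935 in the live control libraries.

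All 6 regulators were open in all libraries. IRF1, an interferon-induced activator of class I genes, ranked 3054 and 3475 in the high, 3125 and 3732 in the low and 7260 and 7354 in the live control libraries. The sorted groups overlapped there and both came before the live control. RFX5, a DNA-binding subunit of the RFX complex, was among the best-ranked, at 697 and 853 in the high, 925 and 1067 in the low and 691 and 418 in the live control libraries. At the other end, HLA-G, a heavy chain known mainly from the placenta, had no gene-start summit in any list. ERAP2, a peptidase that trims peptides, had none among the best and was listed at 40213 in low replicate 1 and at 62895 and 44896 in the live control.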

How the data were processed

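According to the submitters' processing notes, MACS2, Bowtie2, Picard, FastQC and bcl2fastq were run, in versions not named, and hg38 and hg19 are the builds mentioned. How reads were shifted for Tn5, and which duplicates were removed, is not stated in those notes. A deposited list gives the single-base summits of 1 library, with peaks called per library. Its score, by the authors' caller, is taken to be −log10 of a p-value or q-value and grows with depth, so it served only to rank summits within a list. Positions run past hg19 chromosome ends, so they are hg38, and are printed 1-based.

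Samples were grouped by title. Ranks, counts and calls were computed with Python 3.11.15, pandas 2.3.3 and numpy 2.4.6. Gene positions came from RefSeq (GRCh38.p14), and starts from its promoter table, which held 15812 of 19974 protein-coding genes. A missing summit ranked after the best 25681. Call rules were tested on simulated ranks. The genes, lists and rules were chosen with earlier results of these data known, and the split of sites by distance to gene starts was added after seeing the values. All 9 genes are named, with the 3 genes most like NLRC5. Of 21 pathway genes, those whose call differs from most are named, and CANX, IRF1, HLA-G and ERAP2 were picked after their values were seen. Some genes of the lists are counted but not reported by name here. Same-numbered libraries did not deviate together (correlations 0.08, 0.02 and -0.00054 over 8990 genes), so replicate numbers were not used as pairs. Alternatives were list length, window, joining distance, each library left out and the replicate number as a block.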

Additional observations from a re-analysis of the deposited data

How the results depend on the processing

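Of 102 values of 11 results recomputed under the alternatives, 79 stayed within the spread between replicates or, for counts, within 1.5 times, and 23 moved further. In 3 of these, a difference in window totals changed sign. Differences in summits per library over the windows depended on list length and window. Between high and low they were -3.0 with the best summits, -8.5 with full lists, -5.5 with the best 12840, -2.5 with 5 kb either side and 0.0 in gene bodies alone, and -3.0 without any 1 library. Between high and live control they were -5.5, against -17.0 with full lists and 0.5 in gene bodies, and from -8.0 to -3.0 with 1 library left out. Between low and live control they were -2.5, against -8.5 with full lists, 2.0 with the best 12840 and 0.5 in gene bodies, and from -5.0 to 0.0 with 1 library left out. With the best 12840 summits, 2 genes in place of 7 had a gene-start summit in all libraries (26.6% of all genes in place of 41.6%). With those lists 4 of 16 sites, in place of 14 of 26, were shared by all (38.2% of all sites in place of 39%). Gene bodies alone held 5 sites shared by all. The share over all genes is not at hand for gene bodies, so that count is not read further. With the best 12840 summits the high group ranked ahead of the low at 0 genes in place of 1 (11.4% of all genes). That 1 gene, NLRC5, ranked beyond 12840 in all high and low libraries and could not be called there. With the same lists the live control ranked ahead of the high at 2 in place of 4 (29.8%). With 1 library left out, the high group ranked ahead of the live control at 0 to 2 genes (29.2% to 35.8% of all genes) and the live control ahead of the high at 5 to 7 (39.8% to 47.7%). The low group then ranked ahead of the live control at 2 to 4 (46.3% to 48%), the live control ahead of the low at 2 to 5 (29.4% to 33.7%), and the low group ahead of the high at 6 to 8 (49.4% to 57.2%). With the replicate number as a block, the high group ranked ahead of the live control at 1 gene (25.9% of all genes) and the low group at 4 (42.4%). Under that block the low group was ahead of the high at 7 genes (46.8%), the high ahead of the low at 1 (15.7%) and the live control ahead of the high at 6 (37.6%), and the window differences stayed at -3.0, -5.5 and -2.5. What same-numbered libraries share beyond a number is not known from their titles. Their deviations were barely correlated (0.08, 0.02 and -0.00054). Fewer summits enter with shorter lists and narrower windows, and leaving out a library makes groups easier to separate. Other causes of these shifts were not tested. Without read numbers, depth cannot be separated from list length, and 2 libraries a group limit every comparison.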
